A study of Homo sapiens with 8 samples.

Results

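In all, 8 genes of the class 2 risk panel of uveal melanoma (UM) were followed in MP38 cells treated with epigenetic drugs. They were the rows HTR2B, ECM1, RAB31, LMCD1, LTA4H, MTUS1, SATB1 and FXR1 of a table of 35238 gene symbols, and all 8 were among the 15085 genes with enough counts to be tested. MP38 is a UM cell line with a mutation in BAP1, so every library came from 1 line. The 4 groups had 2 libraries each, all taken after 24 h. The control cells received 0.1% DMSO, the solvent of the drugs, and the other groups received romidepsin at 40 nM, quisinostat at 40 nM or mivebresib at 1200 nM. The libraries of a group came from duplicate wells, so that the p-values measure the spread between wells of 1 line.

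UM arises from melanocytes of the eye, and primary tumors are sorted by expression into class 1, with low metastatic risk, and class 2, with high metastatic risk. The panel that assigns the class measures 12 genes and 3 reference genes. HTR2B, ECM1, RAB31 and CDH1 are higher in class 2 tumors, while LMCD1, LTA4H, MTUS1, SATB1, FXR1, EIF1B, ID2 and ROBO1 are lower. Loss of BAP1 is the common genetic event in class 2 tumors, and loss of a copy of chromosome 3, where BAP1 lies, usually goes with it. Romidepsin, a cyclic depsipeptide, and quisinostat, a hydroxamate, inhibit histone deacetylases (HDACs), enzymes that remove acetyl groups from histones. Mivebresib blocks the bromodomains of BET proteins, which read acetylated histones and help transcription to proceed.

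Total counts per library ran from 28483235 to 29359024, and levels are given as CPM, counts scaled to a common library size, after TMM factors that correct for differences in library composition. The 2 DMSO libraries stood farther apart than the pairs of the drug groups: the chi-square per degree of freedom between replicates was 58.1 in DMSO, against 9.52 to 9.79 in the drug groups. No pair of libraries agreed within sampling noise. The test took 1 spread per gene over all groups, so comparisons with DMSO do not carry the wider DMSO spread in full. Of 9 melanocytic marker genes 8 were tested, and their summed level was 4399 to 5737 CPM in DMSO, 4986 to 5295 with romidepsin, 3750 to 4316 with quisinostat and 3790 to 3867 with mivebresib. The melanocytic gene DCT was at or near 0 in every library. Of the markers of other cell types, CD3E, CD3D, CDH5 and KRT5 had no counts in any library. The summed level of 7 immune markers was 66.1 to 83.3 CPM in DMSO and 78.0 to 79.4 with romidepsin. It was 66.2 to 68.2 with quisinostat and 61.3 to 70.8 with mivebresib. Nearly all of it was CD68, at 61.1 to 83.0 CPM over all libraries. A gene was called when its adjusted p, from the quasi-likelihood test of edgeR with Benjamini-Hochberg adjustment over all tested genes, was below 0.05. A stricter rule also asked for a log2 fold change beyond 1.5. In a bulk culture, fewer cells with a transcript and less of it per cell cannot be told apart.

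The class 2-low genes LMCD1, LTA4H, MTUS1 and SATB1 rose with both HDAC inhibitors, and none of the 8 members fell with romidepsin by edgeR, DESeq2 or limma, nor was any lower at an unadjusted p below 0.05. With romidepsin 4 members were called higher, where 15.2% of tested genes were called higher and 15.8% lower. With quisinostat 5 members were called higher and 1 lower, against 28% higher and 25.1% lower among tested genes. With mivebresib 2 members were called higher and 3 lower, against 22.2% and 24.1%. Beyond a log2 fold change of 1.5 lay 2 members with romidepsin, 4 with quisinostat and 3 with mivebresib, beside 4.08%, 12.2% and 8.32% of tested genes. The mivebresib count was 1 without DMSO replicate 1, where LMCD1 and LTA4H lay just inside the limit. The median log2 fold change of the 8 members was 0.46 for romidepsin, 1.07 for quisinostat and -0.12 for mivebresib, and that of all tested genes was -0.012, -0.0036 and 0.0067. The 3 comparisons share their DMSO libraries.

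**Figure D1:**
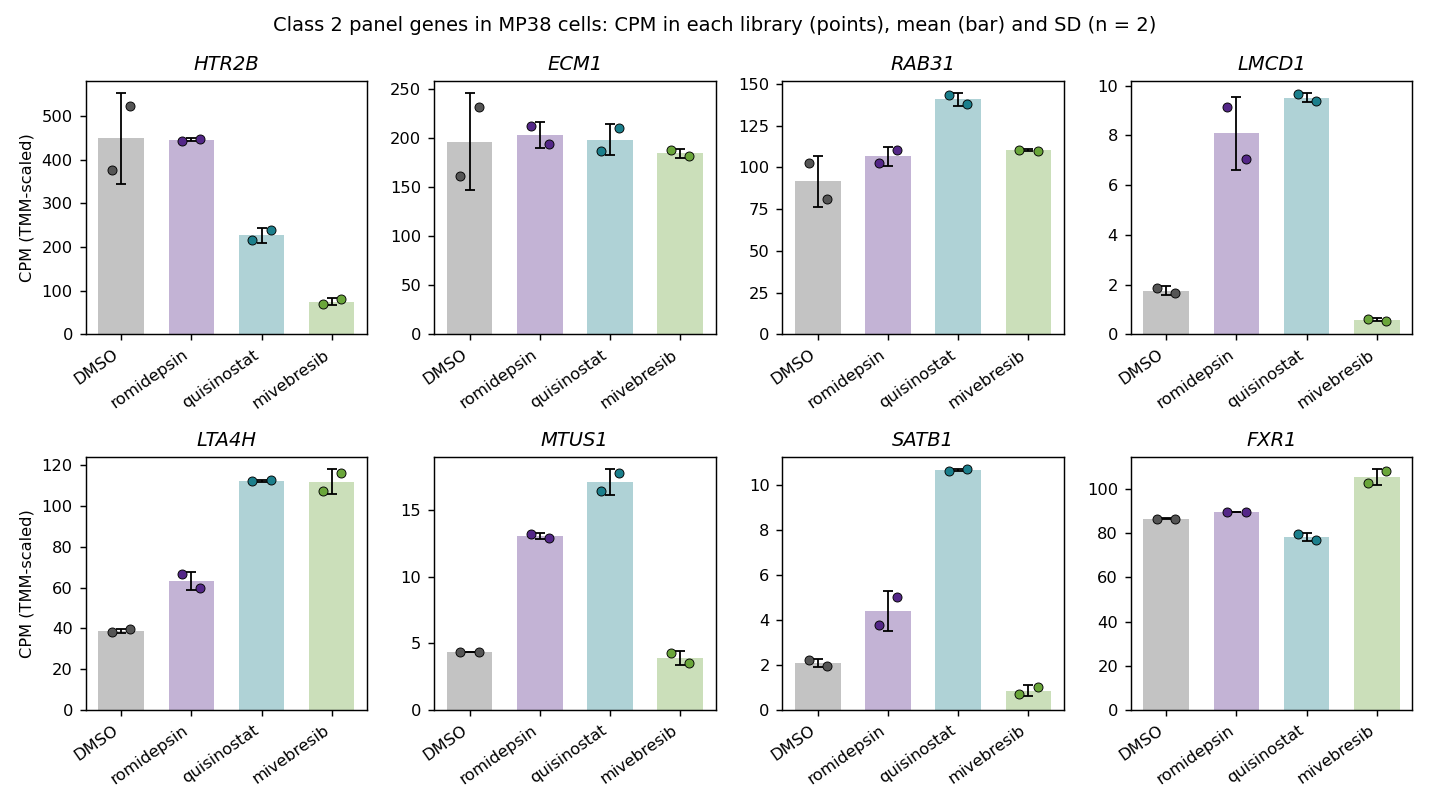
Level of each gene in CPM (vertical axes, each starting at 0) in the 4 groups of MP38 cells; points are the 2 libraries, bars their mean and error bars the SD. LMCD1, MTUS1 and SATB1 are highest with the HDAC inhibitors, LTA4H is as high with mivebresib as with quisinostat, and the 2 DMSO points lie far apart for HTR2B (375 and 522 CPM) and ECM1 (162 and 232 CPM).

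HTR2B encodes a serotonin receptor that signals through Gq proteins, and it was the most abundant member per exon length in DMSO. The gene lies on chromosome 2 (chr2:231108230-231125118, minus strand, GRCh38). Its level was 375 and 522 CPM in DMSO, 443 and 448 with romidepsin, 215 and 239 with quisinostat, and 69.0 and 80.4 with mivebresib. Both romidepsin libraries lay between the 2 DMSO libraries, whereas the quisinostat and mivebresib libraries lay below all others and apart from each other. HTR2B did not pass the test with romidepsin (log2 fold change -0.0095, SE 0.15, 95% interval -0.36 to 0.34, adjusted p = 0.969). It fell with quisinostat (log2 fold change -0.98, SE 0.15, adjusted p = 0.00085) and with mivebresib (-2.59, SE 0.16, adjusted p = 9.64e-06). Its fitted level with mivebresib was thus 6.01-fold lower than in DMSO. With DMSO replicate 1 or 2 left out, the quisinostat value was -1.20 or -0.73 and the mivebresib value -2.80 or -2.33. The romidepsin value was then -0.20 or 0.25. Of the 8 melanocytic markers tested, 1 fell after romidepsin, 4 after quisinostat and 6 after mivebresib. Among all tested genes 15.8%, 25.1% and 24.1% fell. SOX10 was the 1 that fell after romidepsin (log2 fold change -0.39, adjusted p = 0.0141), where HTR2B did not pass. The part of the melanocytic markers in the HTR2B result was not tested.

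The annotation places 559 exon bases of HTR2B on the strand opposite to exons of PSMD1, a subunit of the proteasome. PSMD1 had 6274 to 9434 counts per library. Its log2 fold change was 0.47 with mivebresib (adjusted p = 0.00587), opposite in direction to that of HTR2B. Whether the counting used the strand is not given in the sources used here, so the part of shared bases in the HTR2B counts was not tested. Of 22 genes of serotonin receptors, synthesis and transport, HTR2B included, 9 were tested. Of these, 3 rose and 0 fell with romidepsin (33.3% and 0%, beside 15.2% and 15.8% of all tested genes). With quisinostat 5 rose and 1 fell (55.6% and 11.1%, beside 28% and 25.1%). With mivebresib 2 rose and 2 fell (22.2% and 22.2%, beside 22.2% and 24.1%). HTR7, another serotonin receptor, rose with both HDAC inhibitors (log2 fold change 1.94, adjusted p = 0.00292, and 2.54, adjusted p = 0.000204), at a mean level of 0.397 CPM in DMSO. TPH2, the tryptophan hydroxylase of serotonin synthesis in neurons, passed with no drug.

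ECM1 encodes a secreted glycoprotein of the extracellular matrix (chr1:150508062-150513789, plus strand, GRCh38). Its level was 162 and 232 CPM in DMSO, 213 and 194 with romidepsin, 188 and 210 with quisinostat, and 188 and 182 with mivebresib. All 6 drug libraries lay between the 2 DMSO libraries. The log2 fold change was 0.050 with romidepsin (95% interval -0.30 to 0.40), 0.016 with quisinostat (-0.34 to 0.37) and -0.090 with mivebresib (-0.44 to 0.26), with adjusted p of 0.827, 0.941 and 0.664. These intervals leave room for changes of either sign. The sign hung on the control library. Without DMSO replicate 2 the value was 0.33 with romidepsin, 0.29 with quisinostat and 0.19 with mivebresib. Without DMSO replicate 1 it was -0.16, -0.22 and -0.33. Such a fit leaves 1 DMSO library, whose spread is taken from the other groups.

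Of 18 genes of secreted matrix proteins, ECM1 included and all tested, 2 rose and 0 fell with romidepsin (11.1% and 0%, beside 15.2% and 15.8% of all tested genes). With quisinostat 7 rose and 2 fell (38.9% and 11.1%, beside 28% and 25.1%), and with mivebresib 1 rose and 8 fell (5.56% and 44.4%, beside 22.2% and 24.1%). Their median log2 fold change was 0.30, 0.38 and -0.75. FN1, which encodes fibronectin, fell with mivebresib (log2 fold change -1.35, adjusted p = 0.00109), from 7235 ± 2186 CPM in DMSO to 2840 ± 313 (SD, n = 2). SPARC, a matrix glycoprotein that binds collagen, fell with quisinostat and mivebresib (log2 fold change -0.81, adjusted p = 0.0039, and -0.98, adjusted p = 0.00178).

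RAB31 encodes a small GTPase of the RAB5 group that directs traffic between the trans-Golgi network and endosomes (chr18:9708165-9862551, plus strand, GRCh38). It was 103 and 81.0 CPM in DMSO, 102 and 111 with romidepsin, 143 and 138 with quisinostat, and 111 and 110 with mivebresib. The quisinostat libraries were higher than all others, and the lower romidepsin library overlapped the DMSO range. RAB31 rose with quisinostat (log2 fold change 0.62, SE 0.11, adjusted p = 0.00193) and did not pass with romidepsin (0.21, adjusted p = 0.178) or mivebresib (0.26, adjusted p = 0.0857). With a library left out the value ran from 0.053 to 0.42 with romidepsin and from 0.10 to 0.44 with mivebresib. Both were highest without DMSO replicate 1, a fit with 1 DMSO library. The quisinostat value was 0.79 without DMSO replicate 1 and 0.45 without DMSO replicate 2. Of 18 genes of RAB5-group GTPases and RAB31 regulators, 1 rose and 4 fell with romidepsin (5.56% and 22.2%, beside 15.2% and 15.8% of all tested genes). With quisinostat 4 rose and 5 fell (22.2% and 27.8%, beside 28% and 25.1%). With mivebresib 2 rose and 5 fell (11.1% and 27.8%, beside 22.2% and 24.1%). RAB5B, an early endosome GTPase, fell with quisinostat by 0.46 on the log2 scale (adjusted p = 0.00197). RAB5C passed with no drug.

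LMCD1, MTUS1 and SATB1 had alike profiles over the 8 libraries. The Pearson correlation of their log2 CPM was 0.96 for LMCD1 and MTUS1, 0.94 for LMCD1 and SATB1 and 0.92 for MTUS1 and SATB1, over 8 libraries that share the treatment groups. All 3 were scarce in DMSO, between 1.76 and 4.35 CPM on average, and rose with both HDAC inhibitors. They parted with mivebresib, where LMCD1 and SATB1 fell while MTUS1 did not pass the test. Low-level markers of other cell types moved beside them. The summed level of 6 endothelial markers was 0.638 to 0.986 CPM in DMSO, 3.13 to 3.71 with romidepsin, 5.16 to 5.86 with quisinostat and 1.17 to 1.47 with mivebresib, with KDR as its main part and CDH5 at 0, and of the 2 that were tested 1 rose with romidepsin and both rose with quisinostat. That of 7 fibroblast markers was 14.5 to 22.8, 20.4 to 24.9, 34.8 to 35.8 and 8.37 to 10.6 CPM, while COL1A2, COL3A1, DCN and LUM were at or near 0, and of the 3 tested 1 rose with romidepsin, 2 rose with quisinostat and 2 fell with mivebresib. That of 6 epithelial markers was 4.35 to 4.68, 7.24 to 8.16, 10.2 to 10.3 and 6.22 to 6.33 CPM, with KRT5 at 0. Of the 2 tested, KRT18 and CDH1, 1 rose with romidepsin, both rose with quisinostat, and 1 rose and 1 fell with mivebresib. Of all tested genes, 15.2% rose and 15.8% fell with romidepsin, 28% and 25.1% with quisinostat, and 22.2% and 24.1% with mivebresib. The part of these cell type markers in the result was not tested.

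LMCD1 encodes a LIM and cysteine-rich domain protein that binds GATA factors (chr3:8501707-8574673, plus strand, GRCh38). It had 53 and 45 counts in DMSO, 266 and 205 with romidepsin, 305 and 295 with quisinostat, and 17 and 15 with mivebresib. In CPM this was 1.88 and 1.64, 9.13 and 7.06, 9.65 and 9.39, and 0.622 and 0.539, and no drug library overlapped the DMSO pair. The gene rose by a log2 fold change of 2.20 with romidepsin (SE 0.18, adjusted p = 0.000124) and 2.43 with quisinostat (SE 0.18, adjusted p = 1.36e-05). Under mivebresib it fell instead (log2 fold change -1.59, SE 0.26, adjusted p = 0.00121). On the authors' log CPM table with limma-trend this value was -0.78, still called. Of 16 genes of PET-LIM and related LIM proteins, LMCD1 included, 4 rose and 3 fell with romidepsin (25% and 18.8%, beside 15.2% and 15.8% of all tested genes). With quisinostat 4 rose and 3 fell (25% and 18.8%, beside 28% and 25.1%). With mivebresib 3 rose and 9 fell (18.8% and 56.2%, beside 22.2% and 24.1%). The abundant CSRP1, a LIM protein of smooth muscle, passed with no drug. PDLIM1 fell with quisinostat (log2 fold change -0.42, adjusted p = 0.0133) and did not pass with romidepsin or mivebresib.

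SATB1 encodes a chromatin organizer that binds AT-rich DNA (chr3:18345387-18445588, minus strand, GRCh38). It had 63 and 54 counts in DMSO, 110 and 146 with romidepsin, 337 in both quisinostat libraries, and 19 and 29 with mivebresib. These counts gave 2.23 and 1.97 CPM, 3.78 and 5.03, 10.7 and 10.7, and 0.695 and 1.04, with the 4 groups apart from one another. SATB1 rose with romidepsin (log2 fold change 1.06, SE 0.20, adjusted p = 0.00565) and with quisinostat (2.34, SE 0.19, adjusted p = 2.68e-05), and fell with mivebresib (-1.27, SE 0.26, adjusted p = 0.00419; -0.71 with limma-trend on the authors' table). It shares 211 exon bases on the same strand with TBC1D5, which had 1298 to 1645 counts and passed with no drug, and the part of the shared bases in the SATB1 counts was not tested. CUX1, a CUT homeodomain transcription factor, fell with each drug (-0.32, -0.40 and -0.82, with adjusted p of 0.0173, 0.00324 and 9.3e-05).

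MTUS1 encodes a microtubule-associated protein of a tumor suppressor candidate locus (chr8:17643795-17800917, minus strand, GRCh38). Its counts were 123 and 119 in DMSO, 384 and 374 with romidepsin, 518 and 559 with quisinostat, and 117 and 98 with mivebresib. In CPM the DMSO libraries were at 4.36 and 4.35, those with romidepsin at 13.2 and 12.9, those with quisinostat at 16.4 and 17.8, and those with mivebresib at 4.28 and 3.52. Both HDAC inhibitor groups lay above DMSO with no overlap. MTUS1 rose with romidepsin (log2 fold change 1.58, SE 0.12, adjusted p = 0.000117) and quisinostat (1.97, SE 0.12, adjusted p = 6.19e-06), and its value with mivebresib was -0.16 (95% interval -0.47 to 0.15, adjusted p = 0.375). PDGFRL shares 277 exon bases with it on the opposite strand and had 2 to 56 counts, against 98 to 559 for MTUS1. PDGFRL also rose with romidepsin (2.47, adjusted p = 0.00616) and quisinostat (3.02, adjusted p = 0.000736), and its part in the MTUS1 counts was not tested. Of 13 genes of MTUS1 and its partners 11 were tested, and 4 rose and 2 fell with romidepsin (36.4% and 18.2%, beside 15.2% and 15.8% of all tested genes). With quisinostat 5 rose and 4 fell (45.5% and 36.4%, beside 28% and 25.1%). With mivebresib 2 rose and 4 fell (18.2% and 36.4%, beside 22.2% and 24.1%). MAPRE1, which encodes the microtubule plus-end protein EB1, fell with romidepsin (-0.51, adjusted p = 0.0045) and quisinostat (-0.75, adjusted p = 0.000257). CLIP1 fell with quisinostat (-0.66, adjusted p = 0.0014) and did not pass with romidepsin or mivebresib.

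LTA4H encodes leukotriene A4 hydrolase, which makes the inflammatory mediator leukotriene B4 and also acts as an aminopeptidase (chr12:96000828-96043520, minus strand, GRCh38). It was the 1 member that rose with all 3 drugs. Its level was 38.1 and 39.6 CPM in DMSO, 66.4 and 60.0 with romidepsin, 112 and 113 with quisinostat, and 107 and 116 with mivebresib. Every drug library lay above both DMSO libraries, and the quisinostat pair lay within the mivebresib range. The log2 fold change was 0.70 with romidepsin (SE 0.085, adjusted p = 0.000698), 1.53 with quisinostat (SE 0.086, adjusted p = 4.24e-06) and 1.53 with mivebresib (SE 0.086, adjusted p = 5.81e-06). Of 18 genes of the leukotriene pathway and related aminopeptidases 13 were tested, LTA4H included. Of the 13, 4 rose and 1 fell with romidepsin (30.8% and 7.69%, beside 15.2% and 15.8% of all tested genes). With quisinostat 6 rose and 2 fell (46.2% and 15.4%, beside 28% and 25.1%). With mivebresib 5 rose and 2 fell (38.5% and 15.4%, beside 22.2% and 24.1%). PTGR1, an enzyme that inactivates leukotriene B4, passed with no drug, and RNPEPL1, an aminopeptidase related to LTA4H, fell with each (-0.39, -0.39 and -0.37, with adjusted p of 0.0424, 0.0253 and 0.0347).

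FXR1 encodes an RNA-binding protein of the fragile X family (chr3:180868141-180982753, plus strand, GRCh38). Its level was 86.6 and 86.3 CPM in DMSO, 89.7 and 89.6 with romidepsin, 79.7 and 77.0 with quisinostat, and 103 and 108 with mivebresib. The pairs did not overlap, yet the differences were small. FXR1 rose with mivebresib (log2 fold change 0.29, SE 0.072, adjusted p = 0.0114), a call that was lost without mivebresib replicate 2 (0.25, adjusted p = 0.079). It did not pass with romidepsin (0.053, 95% interval -0.11 to 0.22, adjusted p = 0.606) or quisinostat (-0.14, -0.31 to 0.023, adjusted p = 0.129). The quisinostat value was 0.058 when libraries were scaled by their totals alone. Of 14 genes of the FXR family and its partners, all tested, 2 rose and 1 fell with romidepsin (14.3% and 7.14%, beside 15.2% and 15.8% of all tested genes). With quisinostat 3 rose and 7 fell (21.4% and 50%, beside 28% and 25.1%). With mivebresib 5 rose and 2 fell (35.7% and 14.3%, beside 22.2% and 24.1%). CAPRIN1, an RNA-binding partner, fell with romidepsin (-0.35, adjusted p = 0.0154) and quisinostat (-0.74, adjusted p = 0.000161). G3BP2 fell with quisinostat (-0.43, adjusted p = 0.00341) and did not pass with romidepsin or mivebresib.

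**Figure D2:**
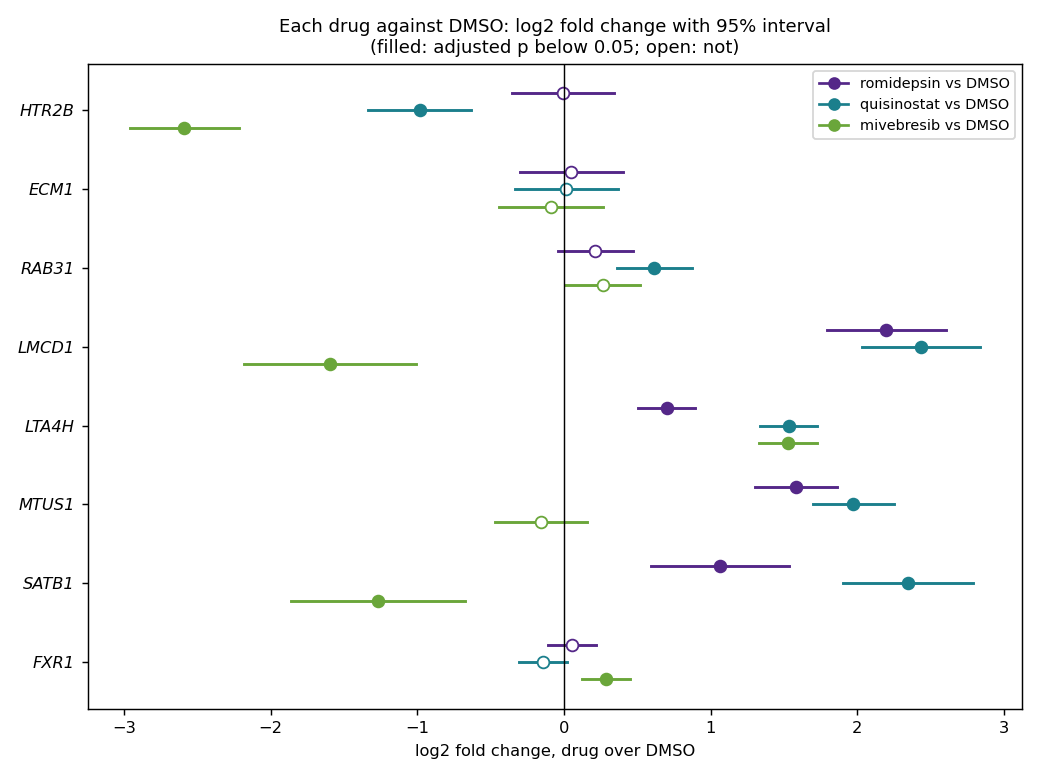
The log2 fold change of each gene with each drug over DMSO (horizontal axis), with its 95% interval; filled points have an adjusted p below 0.05 and open points do not. LMCD1 and SATB1 lie to the right with romidepsin and quisinostat and to the left with mivebresib, LTA4H lies to the right with all 3 drugs, and the intervals of ECM1 span 0.

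Promoters are shown for 4 members because LMCD1 and SATB1 moved alike, LTA4H rose with every drug and RAB31 rose with quisinostat. RefSeq promoters of GRCh38.p14 matched 6 of the 8 members, with no entry for HTR2B and MTUS1. The 250 bases before the RefSeq start of each gene follow, written 5′ to 3′ on the strand of the gene, with capitals marking the matches named below. The windows are chr3:8501573-8501822 on the plus strand for LMCD1, chr3:18445593-18445842 on the minus strand for SATB1, chr12:96035588-96035837 on the minus strand for LTA4H and chr18:9708051-9708300 on the plus strand for RAB31. These starts are not the outermost starts of the GENCODE gene spans given above: the RefSeq start lies 116 bases inside the span for LMCD1, 136 for RAB31 and 7933 for LTA4H, whose window is thus wholly inside the span.
LMCD1: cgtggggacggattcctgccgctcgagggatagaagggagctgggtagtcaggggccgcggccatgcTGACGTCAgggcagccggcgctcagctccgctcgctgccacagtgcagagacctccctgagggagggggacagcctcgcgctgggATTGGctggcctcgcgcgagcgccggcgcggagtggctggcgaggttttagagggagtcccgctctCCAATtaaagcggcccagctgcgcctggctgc
SATB1: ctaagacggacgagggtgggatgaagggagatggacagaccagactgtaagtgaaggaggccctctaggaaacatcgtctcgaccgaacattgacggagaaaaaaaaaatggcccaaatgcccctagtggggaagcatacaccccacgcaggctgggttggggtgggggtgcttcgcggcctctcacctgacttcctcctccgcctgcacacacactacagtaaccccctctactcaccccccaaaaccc
LTA4H: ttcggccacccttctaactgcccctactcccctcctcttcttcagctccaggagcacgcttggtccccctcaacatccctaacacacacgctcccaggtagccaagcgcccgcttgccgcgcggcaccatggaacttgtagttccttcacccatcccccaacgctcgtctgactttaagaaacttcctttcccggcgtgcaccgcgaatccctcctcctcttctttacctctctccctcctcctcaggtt
RAB31: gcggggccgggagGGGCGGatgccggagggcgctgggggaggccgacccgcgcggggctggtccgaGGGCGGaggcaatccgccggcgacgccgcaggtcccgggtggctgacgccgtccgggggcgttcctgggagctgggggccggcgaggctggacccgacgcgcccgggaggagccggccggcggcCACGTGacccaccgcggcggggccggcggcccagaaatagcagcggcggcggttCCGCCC
The LMCD1 window had 24 CpG dinucleotides, that of SATB1 10, that of LTA4H 14 and that of RAB31 40, where the median of all 35116 promoters was 11. RAB31 thus had the most CpG-rich window of the 4, and 1.73% of promoters had more.

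Motifs were searched on both strands of the 6 matched windows. RAB31 held 3 GC boxes (GGGCGG) and 1 E box (CACGTG), which occur in 42.6% and 6.34% of all promoters. LMCD1 held a cAMP response element (TGACGTCA, in 1.65% of promoters), whose match begins 183 bases before the start, and 2 CCAAT boxes (CCAAT, in 32%). Neither the SATB1 nor the LTA4H window held any of them, nor a TATA box (TATAAA, 10.7%), an AP-1 site (TGACTCA, 4.2%) or the core of an M box (CATGTG, 9.42%). Of the windows not printed, FXR1 held 2 GC boxes and 1 CCAAT box, and ECM1 held 1 GC box, 1 AP-1 site and 1 TATA box. The RefSeq start of FXR1 lies 44529 bases inside its GENCODE span, so its window is wholly inside the span, and that of ECM1 lies 47 inside. The cAMP response element and the CCAAT box were added to the search after the sequences had been seen. A match describes letters and no match says only that these letters are not in the window.

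The 2 HDAC inhibitors were compared at the same dose of 40 nM and the same time. The study found romidepsin more potent than quisinostat in reducing the viability of MP38 cells. An equal dose may thus not be an equal strength of treatment, and the part of this in the differences was not tested. Romidepsin, the depsipeptide, left HTR2B higher than quisinostat, the hydroxamate, and LTA4H, MTUS1, SATB1 and RAB31 lower. Of the 8 members 1 was called higher and 4 lower with romidepsin than with quisinostat, where 14.6% of tested genes were called higher and 21% lower, and 0 members differed by more than 1.5 against 5.59% of genes. The log2 difference, romidepsin over quisinostat, was 0.97 for HTR2B (SE 0.15, adjusted p = 0.00199), -1.28 for SATB1 (SE 0.18, adjusted p = 0.00105) and -0.83 for LTA4H (SE 0.084, adjusted p = 0.000264). It was -0.40 for RAB31 (adjusted p = 0.0233) and -0.39 for MTUS1 (adjusted p = 0.0244). The calls of RAB31 and MTUS1 were lost when any romidepsin or quisinostat library was left out, with adjusted p of 0.0747 to 0.158 and 0.0811 to 0.204. LMCD1 was not shown to differ between the 2 compounds (-0.23, 95% interval -0.57 to 0.11, adjusted p = 0.257). This value was -0.43 without romidepsin replicate 1 and -0.055 without romidepsin replicate 2, neither called. Nor were differences shown for ECM1 (0.035, -0.32 to 0.39, adjusted p = 0.885) and FXR1 (0.19, 0.030 to 0.36, adjusted p = 0.0661). The median difference was -0.31 for the members and -0.058 for all tested genes.

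Mivebresib, given at 1200 nM, was set against each HDAC inhibitor in the same fit, and the doses therefore differed. Against quisinostat, 1 member was called higher and 5 lower, beside 26.2% and 31.5% of tested genes, and 4 members were beyond 1.5 beside 14.3%. Against romidepsin, 2 were called higher and 4 lower, beside 23.7% and 25.2%, and 4 were beyond 1.5 beside 9.22%. The median log2 difference of the members was -0.98 against quisinostat and -0.94 against romidepsin, while the median of all tested genes was -0.033 and 0.010.

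LMCD1 was 16.3-fold lower with mivebresib than with quisinostat (log2 difference -4.03, adjusted p = 2.35e-06) and 13.9-fold lower than with romidepsin (-3.79, adjusted p = 5.5e-06). SATB1 differed from quisinostat by -3.61 (adjusted p = 4.76e-06) and from romidepsin by -2.33 (adjusted p = 9.31e-05). MTUS1 was also lower, by -2.13 (adjusted p = 3.81e-06) and -1.74 (adjusted p = 1.67e-05), as was HTR2B, by -1.60 (adjusted p = 5.35e-05) and -2.58 (adjusted p = 8.85e-06). LTA4H was not shown to differ between mivebresib and quisinostat (-0.0066, 95% interval -0.20 to 0.18, adjusted p = 0.952), and was higher with mivebresib than with romidepsin (0.82, adjusted p = 9.42e-05). FXR1 was higher with mivebresib than with either, by 0.43 (adjusted p = 0.00106) and 0.23 (adjusted p = 0.0261), and the second call was lost when any romidepsin, quisinostat or mivebresib library was left out (adjusted p of 0.0608 to 0.137). RAB31 was lower with mivebresib than with quisinostat (-0.35, adjusted p = 0.0247), a call lost when any library of those 2 groups was left out (adjusted p of 0.081 to 0.109), and did not pass against romidepsin (0.050, 95% interval -0.21 to 0.31, adjusted p = 0.739). ECM1 passed against neither, at -0.11 (-0.46 to 0.25) and -0.14 (-0.49 to 0.21).

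**Figure D3:**
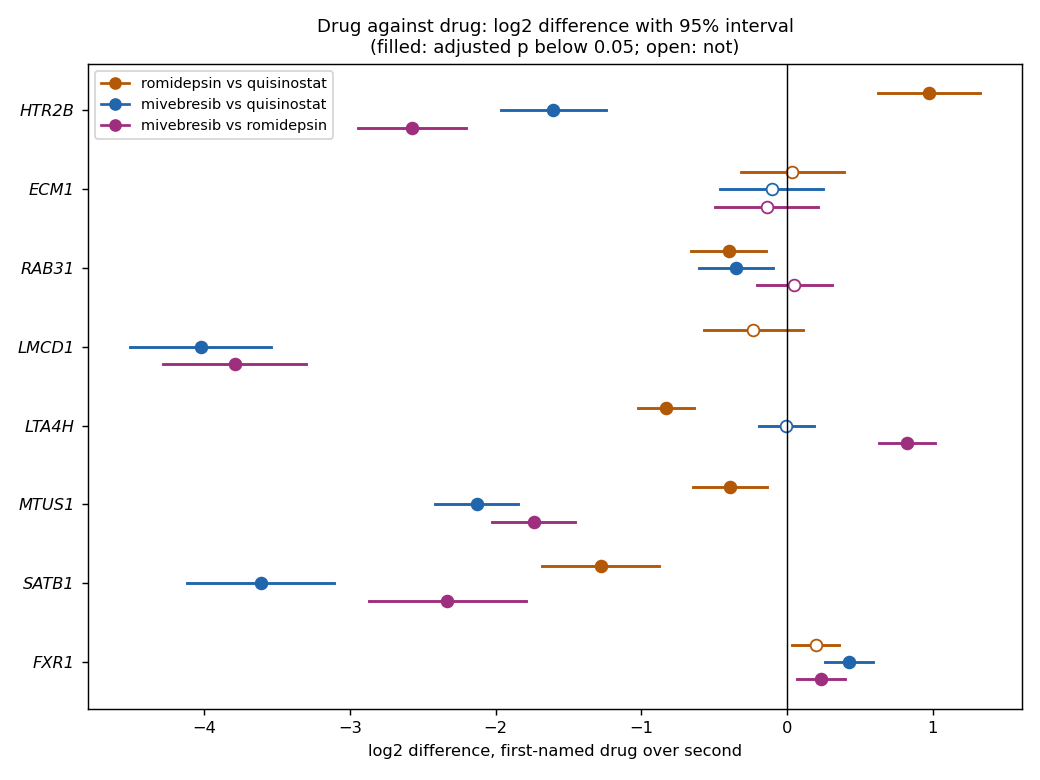
The log2 difference between drugs for each gene (horizontal axis, first-named drug over the second), with 95% intervals; filled points have an adjusted p below 0.05. LMCD1 lies near 0 between the HDAC inhibitors and at -4.03 and -3.79 with mivebresib against them, while LTA4H lies at -0.0066 between mivebresib and quisinostat.

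Levels were compared between genes as CPM per kb of merged exons. In DMSO the order was HTR2B (200 ± 46.1), ECM1 (58.6 ± 14.7), RAB31 (16.4 ± 2.73), FXR1 (7.17 ± 0.0176), LTA4H (5.29 ± 0.142), MTUS1 (0.362 ± 0.00062), LMCD1 (0.193 ± 0.0181) and SATB1 (0.157 ± 0.0137; SD, n = 2). The library ranges of neighbours in this order did not overlap. With each drug LTA4H stood above FXR1 by this measure, which divides by the exons of all annotated transcripts (7350 bases for LTA4H, 12054 for FXR1). In CPM with romidepsin the order was the other way, at 63.2 for LTA4H and 89.7 for FXR1. With mivebresib ECM1 (55.0 ± 1.30) stood above HTR2B (33.3 ± 3.61), and SATB1 (0.0648 ± 0.0183) and LMCD1 (0.0636 ± 0.00638) overlapped.

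**Figure D4:**
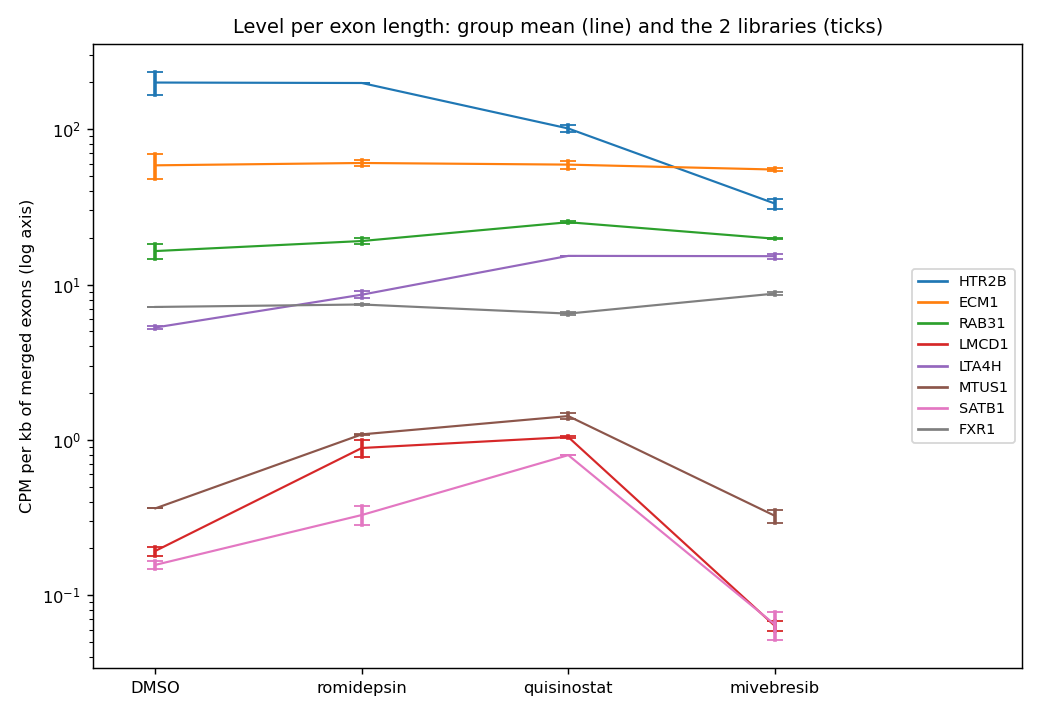
Level of each gene per exon length (vertical log axis, CPM per kb of merged exons) in the 4 groups; lines join group means and ticks mark the 2 libraries. HTR2B drops below ECM1 with mivebresib, LTA4H passes FXR1 with every drug, and MTUS1, LMCD1 and SATB1 stay the least abundant members.

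Among the 4 other panel genes, 2 rose and 1 fell with romidepsin, 2 rose and 0 fell with quisinostat, and 2 rose and 1 fell with mivebresib. CDH1, the class 2-high gene for E-cadherin, rose with both HDAC inhibitors and fell with the BET inhibitor, as LMCD1 and SATB1 did (log2 fold change 1.46, 1.18 and -1.53, adjusted p of 0.00545, 0.00733 and 0.00927). ROBO1, a guidance receptor, rose with each drug, as LTA4H did (0.76, 2.41 and 3.23, adjusted p of 0.00744, 4.95e-06 and 2.13e-06). ID2, an inhibitor of helix-loop-helix factors, fell with romidepsin (-0.69, adjusted p = 0.00141) and rose with mivebresib (0.54, adjusted p = 0.00224), and EIF1B passed with no drug. Over the 8 class 2-low genes, read beside all-gene shares, in the same order of drugs, of 15.2% higher and 15.8% lower, 28% and 25.1%, and 22.2% and 24.1%, 5 rose and 1 fell with romidepsin, 5 rose and 0 fell with quisinostat, and 4 rose and 2 fell with mivebresib. Over the 4 class 2-high genes these counts were 1 and 0, 2 and 1, and 0 and 2.

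Of the 3 reference genes of the panel, 0 rose and 1 fell with romidepsin (0% and 33.3%, beside 15.2% and 15.8% of all tested genes). With quisinostat 0 rose and 1 fell (0% and 33.3%, beside 28% and 25.1%). With mivebresib 1 rose and 0 fell (33.3% and 0%, beside 22.2% and 24.1%). RBM23 fell with romidepsin (-0.88, adjusted p = 0.000171) and quisinostat (-0.66, adjusted p = 0.000195), SAP130 rose with mivebresib (0.33, adjusted p = 0.008), and MRPS21 passed with no drug (-0.35, -0.16 and -0.16).

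The genes whose log2 CPM followed each member most closely over the 8 libraries were taken from all tested genes, as a description over libraries that share the treatment groups. SLC24A5, a melanosomal cation exchanger, followed HTR2B (Pearson r = 0.997), with log2 fold changes of -0.017, -0.93 and -2.71 for romidepsin, quisinostat and mivebresib. IL13RA1 followed ECM1 (0.975), LURAP1L followed RAB31 (0.990), OGFRL1 followed LMCD1 (0.995) and TTC26 followed LTA4H (0.997). ZNF221 followed MTUS1 (0.998), CHAT, the acetylcholine synthase, followed SATB1 (0.998), and DCUN1D1 followed FXR1 (0.990).

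**Figure D5:**
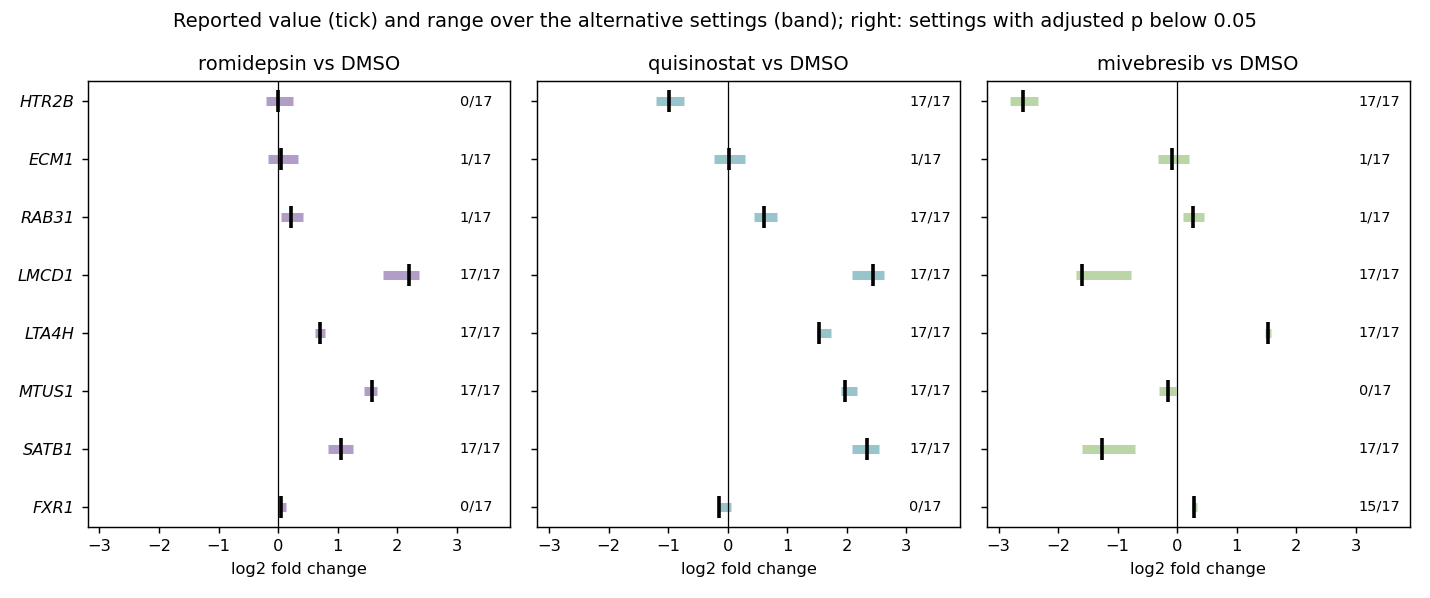
Reported log2 fold change of each gene over DMSO (black tick) with the range over 17 alternative settings (band), in 1 panel per drug; the figures at right count the settings with an adjusted p below 0.05. The bands of LMCD1, LTA4H and SATB1 stay clear of 0 for every drug, and the bands of ECM1 span it.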

How the data were processed

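RNA was sequenced from 8 wells of MP38 cells (strand-specific mRNA libraries). The authors deposited counts per gene symbol, made with BioJupies and not normalized, and a table of log10 values equal to log10(CPM + 1) of those counts. A table of quantile-normalized values was not used. The genome build is hg38 per the submitters' processing notes, and the aligner and annotation are not given in the sources used here.

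The counts entered edgeR 4.0.16 (R 4.3.3): genes were filtered by group, libraries scaled by TMM, and 1 quasi-likelihood model of all 8 libraries gave 6 contrasts, with Benjamini-Hochberg adjustment over 15085 genes. The biological coefficient of variation was 0.0938. An SE is the log2 fold change over the root of its F statistic, and intervals are 95%. Alternatives used DESeq2 1.42.0, limma 3.58.1, other scalings and filters, a replicate block and each library left out in turn. The script was tested on simulated data. For log2 CPM the prior count was 2.

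Gene positions and exon lengths came from GENCODE 29 (GRCh38), matched by symbol, and promoters from RefSeq. Named genes were the 8 members, the other panel and reference genes, and the 2 most abundant tested genes of each list. The gene most like each member and overlapping or nearest genes were named as well. The members and lists were chosen with earlier results of these data known. No protein sequences were used here. The list made for SATB1, apart from CUX1, is not reported here.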

Additional observations from a re-analysis of the deposited data

How the results depend on the processing

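Of 48 pairs of member and comparison, 32 were called; 27 of these calls held under all 17 alternatives, 5 were lost under at least 1, and 0 changed sign. Of the 16 that were not called, 6 gained a call and 8 changed sign. The replicate numbers did not pair the wells (correlations of same-numbered deviations from -0.16 to 0.16), and the replicate block changed 0 of the 48 calls. Scaling by library totals alone moved the median of all genes by 0.20 for quisinostat against DMSO, by -0.13 for romidepsin and by -0.18 for mivebresib against quisinostat. Where a library was left out, its partner was assumed to vary like the other groups. Depth bears most on LMCD1 and SATB1 with mivebresib, which had 15 to 29 counts per library.

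Counts that moved by over 1.5 times under some alternative were the following. Members higher with mivebresib than DMSO numbered 1 in place of 2 when only the 4 libraries compared were fitted, and 1 to 3 with a library left out. Members higher with romidepsin than quisinostat numbered 2 in place of 1 with DESeq2, with at least 1 CPM in 2 libraries and with only 4 libraries, through FXR1, and 1 to 2 with a library left out; those lower numbered 2 to 4 with a library left out. Members higher with mivebresib than romidepsin numbered 1 in place of 2 with library totals alone, upper-quartile factors, limma-trend on the authors' table and no filter, through FXR1, and 1 to 2 with a library left out. Smaller moves were 4 to 5 higher with romidepsin, 5 to 6 higher with quisinostat and 3 to 4 lower with mivebresib against DMSO, and 4 to 5 lower with mivebresib than quisinostat, with a library left out, and 3 in place of 4 lower with romidepsin than quisinostat with DESeq2. Members beyond 1.5 with romidepsin numbered 1 in place of 2 with limma-trend. Other called values moved by over 1.5 times were RAB31 with mivebresib against quisinostat (-0.53 with library totals alone), FXR1 in that comparison (0.25 with library totals alone and with limma-trend) and SATB1 with mivebresib against romidepsin (-1.55 with limma-trend).

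Sign changes were all among values without a call, and the cause was not tested. HTR2B with romidepsin against DMSO was 0.065 with library totals alone, 0.076 with upper-quartile factors, 0.0074 with DESeq2, 0.0092 with limma-voom, 0.082 with limma-trend, 0.012 with at least 1 CPM in 2 libraries, 0.017 with only 4 libraries and 0.0075 with the replicate block, and -0.20 to 0.25 with a library left out (0.015 without either quisinostat library). FXR1 with quisinostat against DMSO was 0.058 with library totals alone and 0.057 with limma-trend. ECM1 with quisinostat against DMSO was -0.0037 with no filter, and romidepsin against quisinostat was -0.093, -0.011 and -0.092 with library totals, upper-quartile factors and limma-trend. With a library left out, ECM1 was -0.16 to 0.33 for romidepsin, -0.22 to 0.29 for quisinostat and -0.33 to 0.19 for mivebresib against DMSO, and -0.030 to 0.16 for romidepsin against quisinostat. LTA4H with mivebresib against quisinostat was 0.00063 with DESeq2, 0.00073 with no filter, 0.011 with at least 1 CPM in 2 libraries and 0.0060 with only 4 libraries, and -0.059 to 0.052 with a library left out. RAB31 with mivebresib against romidepsin was -0.0017 with library totals alone and -0.00078 with limma-trend, and -0.0073 to 0.11 with a library left out.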

Other observations

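The nearest tested genes on each side of the members, leaving out genes that overlap a member, did not all move with them. Of all tested genes, 15.2% rose and 15.8% fell with romidepsin, 28% and 25.1% with quisinostat, and 22.2% and 24.1% with mivebresib. Next to MTUS1, SLC7A2, which encodes a transporter of cationic amino acids, rose with romidepsin and quisinostat (log2 fold change 1.76, adjusted p = 0.00119, and 2.48, adjusted p = 4.82e-05) and lies 73222 bases away, while PCM1 on the other side passed with no drug. Next to SATB1, PLCL2 rose with quisinostat (1.42, adjusted p = 0.00176) and fell with mivebresib (-1.86, adjusted p = 0.00364), at a distance of 1254793 bases. EFHB on the other side passed with no drug, and neither did TBC1D5, which overlaps SATB1, pass with any. Next to LMCD1, SSUH2 fell with mivebresib (-1.94, adjusted p = 0.00322), and EDEM1 on the other side passed with no drug. Beside HTR2B, C2orf72 rose with quisinostat (0.40, adjusted p = 0.0317) and fell with mivebresib (-0.82, adjusted p = 0.00191). ARMC9, on the other side of HTR2B, rose with quisinostat (0.27, adjusted p = 0.0234). Beside LTA4H, CCDC38 fell with mivebresib (-1.88, adjusted p = 0.0432), and ELK3 passed with no drug. DNAJC19, 956 bases from FXR1, passed with no drug, and TARS2, 453 bases from ECM1, fell with mivebresib (-0.41, adjusted p = 0.00391). TTC14, on the other side of FXR1, rose with mivebresib (0.98, adjusted p = 0.0038), and ADAMTSL4, on the other side of ECM1, passed with no drug. Both neighbours of RAB31 fell with quisinostat and mivebresib. PPP4R1 was at -0.43 (adjusted p = 0.00223) and -0.74 (adjusted p = 0.000164), and VAPA at -0.46 (adjusted p = 0.00309) and -0.29 (adjusted p = 0.0294).

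LMCD1, SATB1 and FXR1 lie on chromosome 3, which class 2 tumors often have in 1 copy. Of 781 tested genes of that chromosome, 116 rose and 89 fell with romidepsin (14.9% and 11.4%, beside 15.2% and 15.8% of all tested genes). With quisinostat 222 rose and 179 fell (28.4% and 22.9%, beside 28% and 25.1%), and with mivebresib 184 rose and 175 fell (23.6% and 22.4%, beside 22.2% and 24.1%). Their median log2 fold change was 0.039, 0.017 and 0.028, beside -0.012, -0.0036 and 0.0067 over all tested genes. DCUN1D1, the gene most like FXR1, is on chromosome 3 as well.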
